A study of Mus musculus with 16 samples.

Results

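The interferon-stimulated and interferon regulator genes were 47 of the 7946 genes listed for mouse alveolar macrophages, phagocytes that live on the inner surface of the lung. They were chosen by symbol: every listed gene named Ifi, Ifit or Oas with any ending, every Irf, Gbp, Stat or Irgm gene with a number, and Isg15, Isg20, Bst2, Rtp4, Dhx58, Igtp, Zbp1, Ifnar2, Ifngr1 and Ifngr2. The rule reads symbols and no measured value, though it was set with earlier results of these data known. Usp18, Rsad2, Mx1, Xaf1, Ddx58, Iigp1, Cmpk2 and Ifnar1, 8 further symbols of the same rule, were not analysed here. A symbol is not a function: the rule also took Ifi30, which encodes a lysosomal thiol reductase, and Irf2bp1, Irf2bp2 and Irf2bpl, which encode binding partners of IRF2 or a relative of these, and not IRFs.

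All mice carried the genotype label C57BL6 with no age on the labels, were female per the methods of the study, and inhaled aerosols for 30 min, 3 times a week, over 10 weeks. The aerosol held PBS alone in the control groups and Escherichia coli lipopolysaccharide (LPS, a strong inflammatory stimulus from the outer membrane of bacteria) at 0.5 mg/ml in PBS in the treated groups. CD45+CD11c+Siglec-F+ cells were stained inside the cell for p16, a cell cycle inhibitor used as a marker of senescent cells, and sorted into a p16-negative and a p16-positive fraction at 5000 cells per sample, the approach called INs-seq. The 4 groups are therefore PBS p16-negative, PBS p16-positive, LPS p16-negative and LPS p16-positive, with 4 libraries each. The labels number the libraries of a group as biological replicates and describe them as made from pooled samples, without saying which animals went into which, so p-values reflect how far these libraries differ.

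Depth set the precision. The libraries held 13861 to 1176358 UMIs (unique molecular identifiers, which mark single captured transcripts), and the replicate 1 libraries of both PBS fractions were the shallowest. In these 2, a count of 3 UMIs equals 190.4 and 216 CPM (counts of a gene per 1000000 UMIs of its library), so a member listed at 0 there could still have been at that level. In the deepest library the same count equals 2.55 CPM. The same 2 libraries drew 17.7% and 26.7% of their UMIs from 7 marker genes of airway secretory cells, against 0.0779% to 9.17% in the other 14 libraries. Each group had UMIs for all 20 of the alveolar macrophage markers, which made up 0.758% to 8.55% of a library. Much of this was Ctsd, a lysosomal protease gene, at 73732 CPM in the library with 8.55% (LPS p16-negative replicate 3). The sort marker gene Siglecf was at 0 to 32.3 CPM. In PBS p16-positive replicates 1, 2 and 4 alveolar epithelial markers held more, at 1.31%, 5.03% and 3.08%, against 0.758%, 1.74% and 2.55% for the macrophage markers. In the other libraries they held less.

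Interferons are secreted alarm proteins. Type I interferons bind a receptor built from the Ifnar1 and Ifnar2 products, and interferon gamma binds one built from the Ifngr1 and Ifngr2 products. Janus kinases on these receptors then phosphorylate STAT proteins, which act in the nucleus on the interferon-stimulated response element (ISRE), in a complex with IRF9, or on the gamma-activated site (GAS). The genes switched on in this way encode proteins that block virus entry, release or replication, and the interferon regulatory factors (IRFs) bind ISRE-like elements and control both interferon production and the response to it. In macrophages, LPS sensed by TLR4 can start the same programme through the adaptor TRIF and IRF3.

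The start regions of several members carry ISRE cores, and these sequences are shown first because the rule and the counts did not use them. RefSeq start windows on build GRCm38.p6, 250 bases before to 50 after the start of a gene, were matched for 38 of the 47 members, while 9 members, Dhx58, Rtp4 and Zbp1 among them, had no match. A gene with several starts counted as having a core if any of its windows had 1. The ISRE core was searched as GAAANNGAAA and its reverse complement TTTCNNTTTC, and the GAS core as TTCNNNGAA, which reads the same on both strands. An ISRE core stood in 15 of the 38 windows (39.5%), against 3.99% of 27025 genes with a window, and a GAS core in 13 of them (34.2%), against 9.55%. Both cores stood in 7 members. A match is a description of letters and not of factor binding, and an ISRE core can share letters with a neighbouring core or with a GAS core. Given here are stretches of 9 of the 15, chosen to cover the modifier, the effectors and the GTPases, written 5′ to 3′ in the direction of the gene, with the letters of every ISRE core in capitals.
Isg15 (chr4:156200860-156200911, minus strand): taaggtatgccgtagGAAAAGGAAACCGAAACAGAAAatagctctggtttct
Bst2 (chr8:71537572-71537617, minus strand): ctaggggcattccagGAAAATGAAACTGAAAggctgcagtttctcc
Ifit3 (chr19:34583358-34583431, plus strand): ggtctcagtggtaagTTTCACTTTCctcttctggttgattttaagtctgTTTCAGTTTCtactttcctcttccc
Oas1a (chr5:120907526-120907560, minus strand): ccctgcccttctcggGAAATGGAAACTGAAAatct
Gbp5 (chr3:142496754-142496793, plus strand): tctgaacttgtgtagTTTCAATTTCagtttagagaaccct
Ifitm2 (chr7:140955983-140956022, minus strand): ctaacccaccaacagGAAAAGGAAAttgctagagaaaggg
Igtp (chr11:58199507-58199546, plus strand): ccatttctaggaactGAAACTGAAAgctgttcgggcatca
Irgm2 (chr11:58214898-58214937, plus strand): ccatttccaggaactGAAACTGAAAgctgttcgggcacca
Ifitm3 (chr7:141010716-141010742, minus strand): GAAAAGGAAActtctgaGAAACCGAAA
Isg15, which encodes a ubiquitin-like modifier of antiviral defence, had 3 overlapping cores that began 78 bases upstream of its start. Bst2 encodes tetherin, which holds budding virus on the cell surface, and its 2 overlapping cores began 130 bases upstream. In Ifitm3, which encodes a membrane protein that blocks virus entry, both cores lay within the first transcribed bases and not upstream. The stretches of the neighbouring GTPase genes Igtp and Irgm2 were identical at 38 of 40 bases, and these 2 genes overlap in the annotation. Stat2 and Irf2 also had a core, 222 and 241 bases upstream, whereas Irf1, Irf7 and Stat3 had none in this window.

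**Figure D1:**
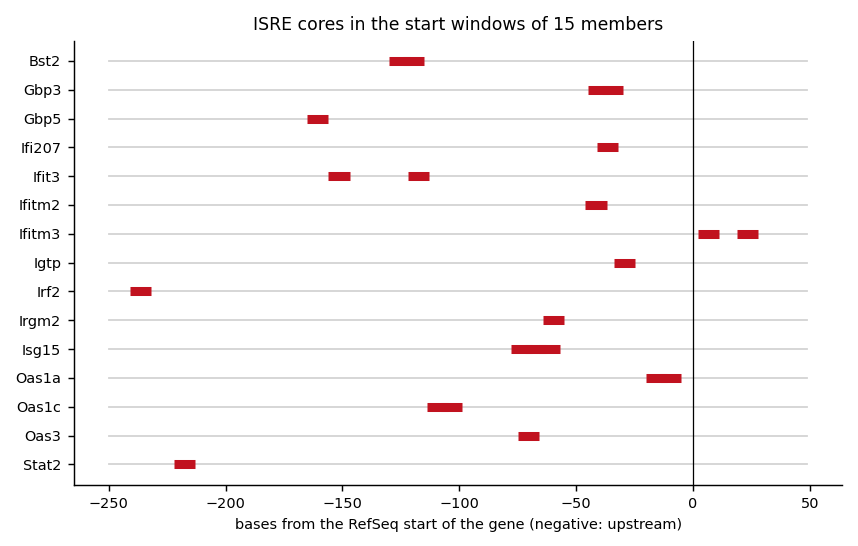
Positions of ISRE cores (red) in the start windows of the 15 members that had at least 1, with the distance from the RefSeq start in bases on the x axis and 1 line per gene. Of these genes only Ifitm3 has its cores after the start, and Stat2 and Irf2 have theirs farthest upstream, at 222 and 241 bases.

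Levels of the 47 members spanned a wide range, and together they were a small share of the RNA. They held 17235 UMIs in all, and their share of a library averaged 0.380% ± 0.061 (SD, n = 4) in PBS p16-negative, 0.484% ± 0.060 in PBS p16-positive, 0.402% ± 0.069 in LPS p16-negative and 0.442% ± 0.051 in LPS p16-positive cells. The 4 groups overlapped in that share. A single 3′ end was counted per captured molecule, so CPM were not divided by gene length. Bst2 was the most abundant member, at a mean of 1325 CPM over the 16 libraries, more than the next 3 together: Stat3, a transcription factor downstream of interleukin 6 and 10, at 370.5 CPM, Irf1, an activator of interferon-gamma targets, at 287 CPM, and the interferon gamma receptor gene Ifngr2 at 227 CPM. At the other end stood the PYHIN gene Ifi207 at a mean of 2.56 CPM and Gbp8 at 4.22 CPM.

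By role, the 3 receptor genes ranged from 18.8 to 227 CPM, the 8 IRFs from 23.2 to 287 and the 14 antiviral effectors from 4.53 to 1325. The number of members seen differed with depth, since 20 and 21 of the 47 had a UMI in the PBS replicate 1 libraries and 34 to 47 in the other 14. The 7 members with fewer than 30 UMIs over all libraries were not tested. Their totals in PBS p16-negative, PBS p16-positive, LPS p16-negative and LPS p16-positive libraries were 0, 7, 7 and 15 UMIs for Igtp, 1, 6, 6 and 15 for Oas1a, and 4, 11, 2 and 11 for Oas1b. For the tetratricopeptide effector gene Ifit3 they were 0, 9, 2 and 17, for Gbp8 0, 5, 11 and 9, for the exonuclease gene Isg20 1, 3, 0 and 16, and for Ifi207 1, 0, 6 and 8. All 7 were near the detection limit, and the groups differ in depth, so no fold was read from these sums.

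**Figure D2:**
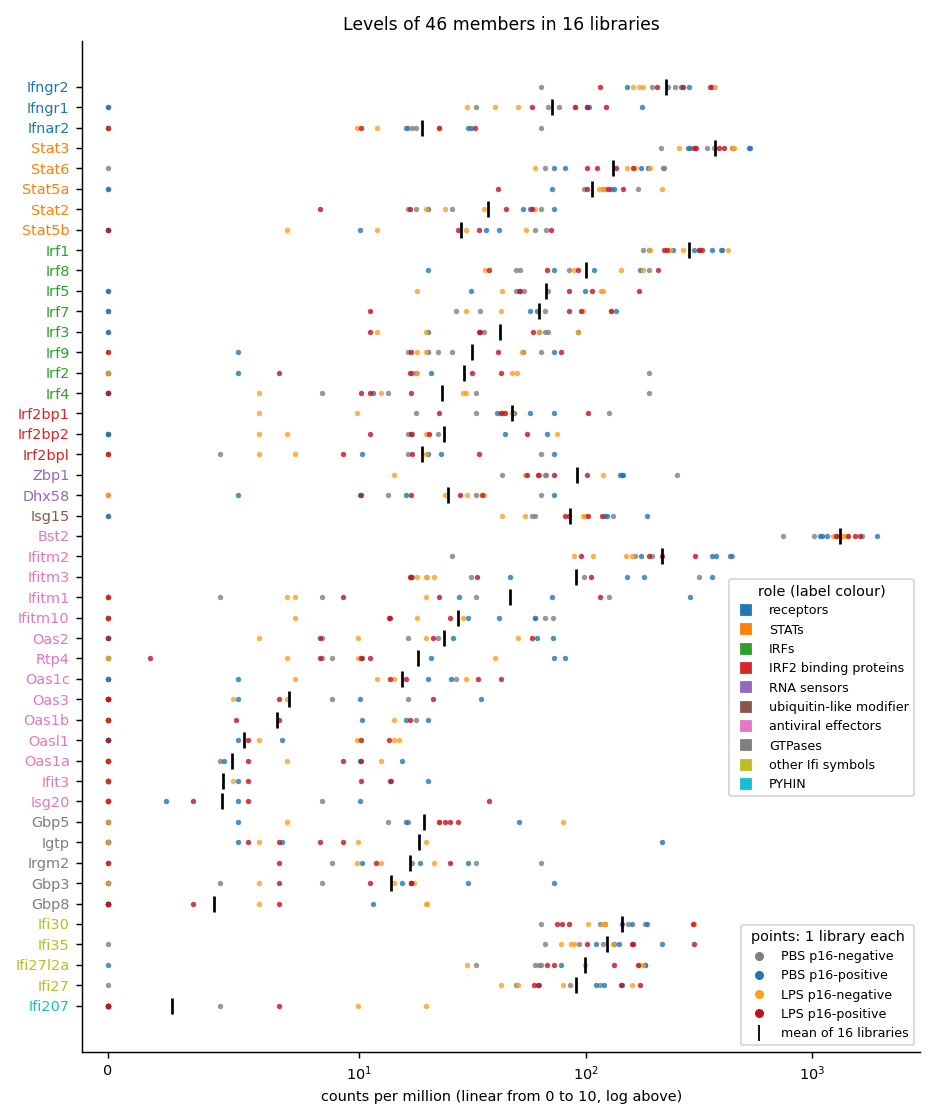
Level of 46 members in each of the 16 libraries, in CPM on an axis that is linear from 0 to 10 and logarithmic above, with 1 point per library coloured by group and a black tick at the mean of 16 libraries. Bst2 stands alone above 1000 CPM on average, and many members of lower rank are listed at 0 in some libraries.

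The comparison of LPS with PBS asked whether 10 weeks of inhaled LPS left the interferon genes at another level, and none of the 40 tested members passed the edgeR quasi-likelihood test at an adjusted p of 0.05, where 0.921% of all 6516 tested genes did. At an unadjusted p under 0.05 there were 4 members, Irf5 and Oasl1 at a positive and Ifitm10 and Ifitm3 at a negative fold change, which is 10.0% of the members against 9.27% of all genes. DESeq2 called 2 members, Ifitm10 and Ifitm3, both lower after LPS, where 1.3% of genes were called lower, and gave 2 members no adjusted p. The alternative limma voom with sample quality weights called Ifitm10 alone, where 1.32% of genes were called lower. The median log2 fold change of the members was 0.21, with 25 positive and 15 negative, against 0.14 over all genes. Another scaling of the libraries moved that median of all genes by -0.11 (RLE size factors), -0.15 (DESeq2) or -0.16 (voom), and the members with it, to 0.09, 0.08 and -0.06. A 95% interval inside a 2-fold change in either direction was reached by only 8 of the 40 members. A p that misses the threshold therefore does not show that a member stayed at its level, and in bulk samples fewer cells that express a gene and less RNA per cell cannot be told apart.

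Values per library are given in the order of replicates 1 to 4. Among the receptors, Ifngr1 and Ifngr2 encode the chains of the interferon gamma receptor. Ifngr1 was at 0, 32.9, 68.2 and 75.8 CPM in the PBS p16-negative and at 0, 101, 103 and 178 in the PBS p16-positive libraries. Ifngr1 after LPS was at 39.6, 50.01, 30.03 and 89.6 CPM in the p16-negative and at 89.5, 57.9, 101 and 123 in the p16-positive libraries. All 4 groups overlapped for Ifngr1, and the means of LPS and PBS were close (log2 fold change -0.02 ± 0.37 (SE), 95% interval -0.77 to 0.73, adjusted p = 1.00), with a sign that turned with the replicate block and without a filter on low counts. Ifngr2 was at 63.5, 230.2, 247 and 196 CPM in the PBS p16-negative and at 361, 152, 264 and 286 in the PBS p16-positive libraries. Ifngr2 after LPS was at 178, 171, 162 and 371 CPM in the p16-negative and at 207, 116, 269.6 and 354 in the p16-positive libraries. The replicate 4 libraries of both LPS fractions were the highest of their groups for Ifngr2 (log2 fold change 0.26 ± 0.31 (SE), 95% interval -0.36 to 0.89, adjusted p = 0.897). Ifnar2, a chain of the type I receptor, was low throughout at 0 to 63.5 CPM and was at log2 fold change -0.28 ± 0.58 (SE), 95% interval -1.46 to 0.89, adjusted p = 0.970.

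The STATs, which carry the signal from receptor to nucleus, were not called either, and their fold changes were positive in 5 of 6 with a median of 0.16, but in 4, 4 and 2 of 6 with medians of 0.04, 0.04 and -0.05 under RLE, DESeq2 and voom. Stat3 was at 444, 214, 366 and 343 CPM in the PBS p16-negative and at 289, 283, 527 and 533 in the PBS p16-positive libraries. Stat3 after LPS was at 446, 257, 372 and 450.4 CPM in the p16-negative and at 308, 299.6, 388 and 408 in the p16-positive libraries. Groups overlapped for Stat3, the best measured of the STATs (log2 fold change 0.22 ± 0.30 (SE), 95% interval -0.38 to 0.82, adjusted p = 0.925). Stat5a was at 0, 98.7, 119 and 169 CPM in the PBS p16-negative and at 0, 70.8, 129 and 134 in the PBS p16-positive libraries. Stat5a after LPS was at 119, 121, 216 and 114 CPM in the p16-negative and at 146, 40.8, 101 and 126 in the p16-positive libraries. Stat5a, which acts downstream of GM-CSF, a growth factor of alveolar macrophages, had the lowest p of the STATs (log2 fold change 0.36 ± 0.38 (SE), 95% interval -0.41 to 1.13, adjusted p = 0.872), and it overlaps Stat3 on the opposite strand, so without knowing the strand use of the counting their reads at the shared end cannot be told apart.

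Of the 8 IRFs, 7 had a positive fold change after LPS, with a median of 0.42, and under RLE, DESeq2 and voom 6 of 8 had one, with medians of 0.33, 0.28 and 0.23, but none was called. Irf5 was at 0, 49.3, 68.2 and 53.5 CPM in the PBS p16-negative and at 0, 50.5, 31.01 and 99.2 in the PBS p16-positive libraries. Irf5 after LPS was at 119, 42.9, 18.02 and 117 CPM in the p16-negative and at 106, 51.1, 84.2 and 173 in the p16-positive libraries. Irf5, which acts in the inflammatory arm of Toll-like receptor signalling, read 0 in both shallow PBS libraries, and its LPS and PBS libraries overlapped (log2 fold change 0.87 ± 0.41 (SE), 95% interval 0.03 to 1.71, adjusted p = 0.506). Irf7 was at 0, 65.8, 34.1 and 26.7 CPM in the PBS p16-negative and at 0, 60.6, 56.8 and 136 in the PBS p16-positive libraries. Irf7 after LPS was at 29.7, 129, 42.04 and 97.05 CPM in the p16-negative and at 11.2, 129, 84.2 and 95.2 in the p16-positive libraries. Irf7 amplifies type I interferon production, and its values spread more than 10-fold within the LPS p16-positive group (log2 fold change 0.67 ± 0.45 (SE), 95% interval -0.24 to 1.57, adjusted p = 0.731). Irf1 was at 190.4, 395, 179 and 317 CPM in the PBS p16-negative and at 361, 243, 299.7 and 399 in the PBS p16-positive libraries. Irf1 after LPS was at 267, 193, 234 and 423 CPM in the p16-negative and at 325, 221, 227 and 316 in the p16-positive libraries. Irf1 was detected in every library at 179 to 423 CPM, and its interval is among the narrowest of the members (log2 fold change 0.16 ± 0.29 (SE), 95% interval -0.44 to 0.75, adjusted p = 0.966), although its sign turned under RLE and DESeq2 scaling and under the stricter filter on counts. The others ran from -0.19 for Irf3, the factor activated through TRIF, to 0.82 for Irf2, an antagonist of IRF1, on the log2 scale.

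Isg15, a textbook readout of type I interferon, was not called. Isg15 was at 0, 132, 59.6 and 57.96 CPM in the PBS p16-negative and at 0, 121, 124 and 187 in the PBS p16-positive libraries. Isg15 after LPS was at 99.05, 42.9, 54.1 and 97.05 CPM in the p16-negative and at 83.9, 102, 118 and 80.8 in the p16-positive libraries. The highest Isg15 value was that of PBS p16-positive replicate 4, and the LPS libraries lay between 42.9 and 118 CPM (log2 fold change -0.01 ± 0.37 (SE), 95% interval -0.75 to 0.73, adjusted p = 1.00). Of the sensors, Zbp1 recognises Z-form nucleic acid and Dhx58 regulates the RNA helicase sensors. Zbp1 was at 254, 65.8, 42.6 and 66.9 CPM in the PBS p16-negative and at 144, 142, 62.01 and 145 in the PBS p16-positive libraries. Zbp1 after LPS was at 119, 14.3, 54.1 and 62.2 CPM in the p16-negative and at 72.8, 61.3, 101 and 55.3 in the p16-positive libraries. The highest Zbp1 value came from the shallow PBS p16-negative library, and the groups overlapped (log2 fold change -0.30 ± 0.38 (SE), 95% interval -1.07 to 0.47, adjusted p = 0.917). Dhx58 was at 63.5, 32.9, 0 and 13.4 CPM in the PBS p16-negative and at 72.1, 10.1, 5.17 and 16.1 in the PBS p16-positive libraries. Dhx58 after LPS was at 0, 35.7, 24.02 and 29.9 CPM in the p16-negative and at 27.98, 10.2, 16.8 and 34.9 in the p16-positive libraries. Dhx58 was near its detection limit in most libraries (log2 fold change 0.87 ± 0.59 (SE), 95% interval -0.32 to 2.07, adjusted p = 0.734). Its mean CPM went the other way, from 27.4 in PBS to 22.4 in LPS p16-negative and from 25.9 to 22.5 in p16-positive libraries. The sign of its fold change is therefore uncertain.

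The antiviral effectors had fold changes of both signs: 3 of the 10 tested had a positive and 7 a negative fold change, with a median of -0.30 (-0.51, -0.72 and -0.63 under RLE, DESeq2 and voom, with 3 positive in each), and the 2 lowest adjusted p of all members were here. Bst2 was at 1650.3, 1283, 1014 and 740.1 CPM in the PBS p16-negative and at 1082, 1931, 1101 and 1156 in the PBS p16-positive libraries. Bst2 after LPS was at 1416, 1365, 1351 and 1232 CPM in the p16-negative and at 1545, 1627, 1432 and 1268 in the p16-positive libraries. Bst2 (chr8:71534255-71537456, minus strand) was the best measured member, and its 8 LPS values lay inside the range of the 8 PBS values (log2 fold change 0.52 ± 0.31 (SE), 95% interval -0.12 to 1.16, adjusted p = 0.692). Ifitm10 was at 0, 65.8, 59.6 and 71.3 CPM in the PBS p16-negative and at 0, 30.3, 41.3 and 59.98 in the PBS p16-positive libraries. Ifitm10 after LPS was at 0, 28.6, 18.02 and 7.47 CPM in the p16-negative and at 0, 13.6, 25.3 and 13.6 in the p16-positive libraries. Ifitm10 (chr7:142325837-142373753, minus strand), a relative of the Ifitm restriction factors whose function is less known, was listed at 0 in 1 library of every group, and the highest LPS value of 28.6 CPM was below every nonzero PBS value (log2 fold change -1.70 ± 0.52 (SE), 95% interval -2.76 to -0.63, adjusted p = 0.130). It starts 2158 bases from the end of Ctsd (chr7:142375911-142388038, minus strand), the gene of the lysosomal protease cathepsin D, on the same strand. Ctsd was at 16122, 28842, 33898 and 27338 CPM in the PBS p16-negative and at 3319, 10785, 30525 and 15917 in the PBS p16-positive libraries. Ctsd after LPS was at 34399.8, 40143, 73732 and 38531 CPM in the p16-negative and at 36098, 15539, 54868 and 36782 in the p16-positive libraries. Ctsd was thus far above Ifitm10 in every library and had a fold change of the opposite sign (log2 fold change 1.27 ± 0.51 (SE), adjusted p = 0.338), and the part of its reads in the Ifitm10 count was not tested.

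Ifitm3 was at 317, 98.7, 17.04 and 31.2 CPM in the PBS p16-negative and at 361, 152, 46.5 and 179.9 in the PBS p16-positive libraries. Ifitm3 after LPS was at 19.8, 21.4, 18.02 and 19.9 CPM in the p16-negative and at 16.8, 106, 16.8 and 33.2 in the p16-positive libraries. Ifitm3 (chr7:141009586-141010770, minus strand) was at 16.8 to 33.2 CPM in 7 of the 8 LPS libraries and at 106 CPM in LPS p16-positive replicate 2, while the PBS libraries spread from 17.0 to 361 CPM (log2 fold change -1.43 ± 0.47 (SE), 95% interval -2.38 to -0.47, adjusted p = 0.170). That LPS library is also the one with the 9.17% share of secretory cell markers. Without it edgeR called Ifitm3 (log2 fold change -1.95, adjusted p = 0.00957) and Ifitm10 (-1.80, adjusted p = 0.0416) lower after LPS, where 2.1% of genes were called lower. With the replicate number as a block both were called too (-1.54 with adjusted p = 0.00946 for Ifitm3, and -1.63 with adjusted p = 0.0352 for Ifitm10), where 2.3% were. That block also ties PBS to LPS libraries of the same number, which were not taken as pairs, so its adjusted p rests on an unsupported matching. Without both PBS replicate 1 libraries the values were -1.16 for Ifitm3 (adjusted p = 0.358) and -1.88 for Ifitm10 (adjusted p = 0.0884). Over all the alternatives the adjusted p ran from 0.00946 to 0.358 for Ifitm3 and from 0.0135 to 0.329 for Ifitm10, so the call depends on the setting, while the fold change was negative in each, from -1.95 to -1.16 for Ifitm3 and from -2.01 to -1.53 for Ifitm10.

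Ifitm genes are also strongly expressed by other lung cells, and the shares of such cells' markers differed between the groups. The 11 listed of 12 endothelial markers had UMIs in every group and made up 0.0835% to 0.540% of PBS p16-negative, 0.499% to 1.14% of PBS p16-positive, 0.0184% to 0.0714% of LPS p16-negative and 0.0252% to 0.267% of LPS p16-positive libraries. The endothelial gene Cldn5, which encodes a tight junction protein, was called lower in LPS than in PBS libraries, at -1.91 ± 0.48 (SE) on the log2 scale and an adjusted p of 0.0447. The 8 alveolar epithelial markers made up 0.389% to 2.57%, 1.31% to 5.03%, 0.191% to 2.30% and 0.103% to 1.21% in the same order of groups. On average both shares were higher in PBS than in LPS libraries of the same fraction, and higher in the p16-positive than in the p16-negative fraction of the PBS mice, as Ifitm3 was. Ifitm10 was lower after LPS too but went the other way between the PBS fractions, with a mean of 49.2 CPM in p16-negative and 32.9 CPM in p16-positive cells. The part of these shares in the Ifitm results was not tested.

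**Figure D3:**
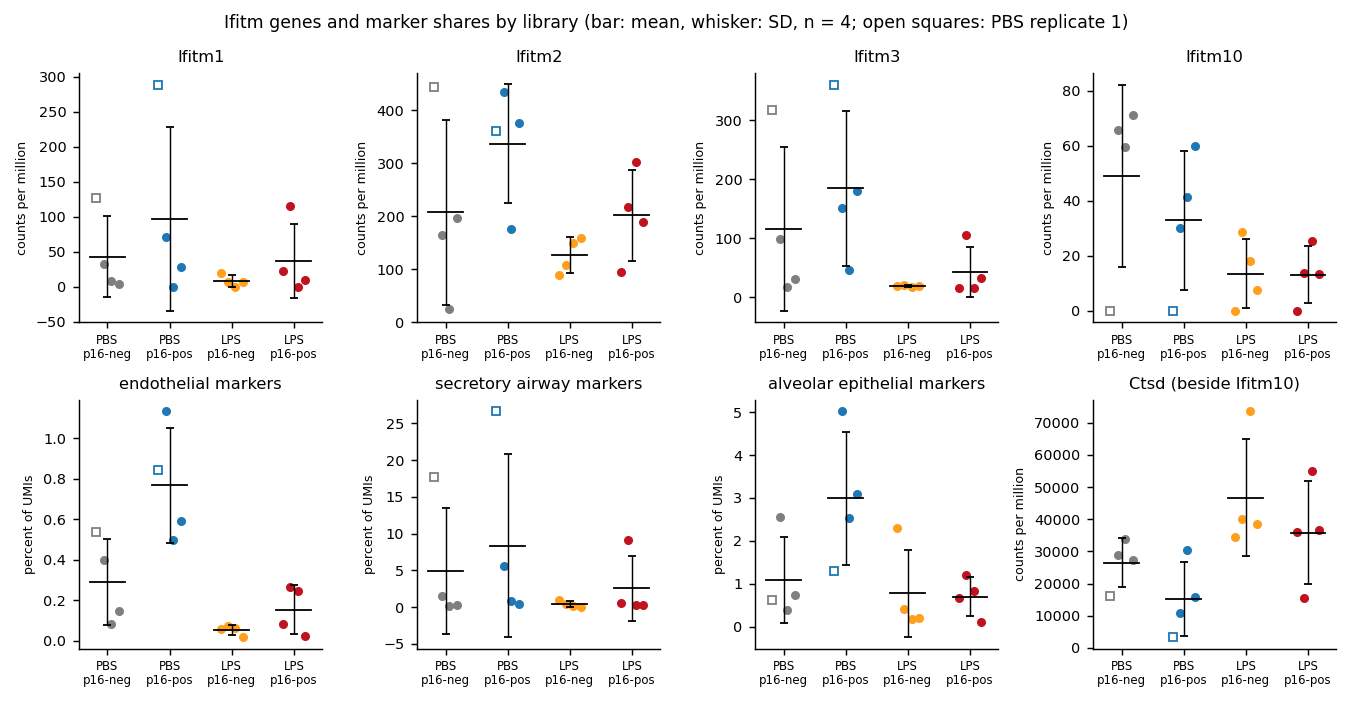
Upper row: CPM of Ifitm1, Ifitm2, Ifitm3 and Ifitm10 in each library, by group. Lower row: percent of UMIs in endothelial, secretory airway and alveolar epithelial markers, and CPM of Ctsd. Bars are means and whiskers SD of 4 libraries, and open squares are the PBS replicate 1 libraries. Ifitm3 lies at 16.8 to 33.2 CPM in 7 of 8 LPS libraries and reaches 361 CPM in PBS, and the endothelial share is at most 0.267% in the LPS and up to 1.14% in the PBS libraries.

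Oasl1 encodes a relative of the 2′-5′-oligoadenylate synthetases that limits IRF7 translation in the mouse. Oasl1 was at 0, 0, 0 and 0 CPM in the PBS p16-negative and at 0, 0, 5.17 and 6.92 in the PBS p16-positive libraries. Oasl1 after LPS was at 9.90, 14.3, 6.01 and 14.9 CPM in the p16-negative and at 5.60, 10.2, 0 and 13.6 in the p16-positive libraries. Every value of Oasl1 rested on few UMIs, 0, 4, 10 and 20 per group in the same order (log2 fold change 1.76 ± 0.73 (SE), 95% interval 0.28 to 3.24, adjusted p = 0.381). With 34 UMIs in all, it passed the minimum for testing through the LPS libraries, where it was high. Other tested genes with an Oas symbol, Oas1c, Oas2 and Oas3, were at 0.62, -0.31 and -0.67 on the log2 scale, none called. Ifitm1, Ifitm2 and Ifitm3 on chromosome 7 and the Oas1 genes on chromosome 5 are close paralogs, and only uniquely mapping reads were counted, so their individual counts are less certain than those of single-copy genes.

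Interferon-induced GTPases, which attack the vacuoles of intracellular microbes, were sparse. Gbp5 was at 0, 16.4, 0 and 13.4 CPM in the PBS p16-negative and at 0, 50.5, 5.17 and 16.1 in the PBS p16-positive libraries. Gbp5 after LPS was at 79.2, 7.14, 0 and 22.4 CPM in the p16-negative and at 22.4, 27.2, 25.3 and 23.8 in the p16-positive libraries. The 4 LPS p16-positive libraries were the most even for Gbp5, at 22.4 to 27.2 CPM, and the other groups spread around them (log2 fold change 0.93 ± 0.64 (SE), 95% interval -0.38 to 2.23, adjusted p = 0.746). The remaining members with an Ifi symbol had positive fold changes in 4 of 4, although that of Ifi30 was -0.13 under voom. Ifi30 was at 63.5, 115, 153 and 183 CPM in the PBS p16-negative and at 144, 121, 160.2 and 187 in the PBS p16-positive libraries. Ifi30 after LPS was at 119, 121, 102 and 301 CPM in the p16-negative and at 78.4, 74.9, 84.2 and 298 in the p16-positive libraries. For Ifi30 the replicate 4 libraries of both LPS fractions, at 301 and 298 CPM, stood far above the other 6 LPS libraries at 74.9 to 121 CPM (log2 fold change 0.21 ± 0.34 (SE), 95% interval -0.48 to 0.90, adjusted p = 0.950). Ifi35 was at 0, 65.8, 119 and 93.6 CPM in the PBS p16-negative and at 216, 111, 139.5 and 134 in the PBS p16-positive libraries. Ifi35 after LPS was at 89.1, 85.7, 78.1 and 132 CPM in the p16-negative and at 162, 299.6, 160.1 and 101 in the p16-positive libraries. Ifi35, a cytosolic protein induced by interferon, had the lowest p of this group (log2 fold change 0.55 ± 0.34 (SE), 95% interval -0.14 to 1.24, adjusted p = 0.704).

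The IRF2-binding corepressor genes gave fold changes near 0. Irf2bp1 was at 127, 32.9, 42.6 and 17.8 CPM in the PBS p16-negative and at 72.1, 40.4, 56.8 and 48.4 in the PBS p16-positive libraries. Irf2bp1 after LPS was at 9.90, 42.9, 6.01 and 47.3 CPM in the p16-negative and at 22.4, 102, 42.1 and 44.2 in the p16-positive libraries. The highest Irf2bp1 value came from the shallow PBS p16-negative library. Irf2bp2 was at 0, 16.4, 17.04 and 22.3 CPM in the PBS p16-negative and at 0, 0, 67.2 and 43.8 in the PBS p16-positive libraries. Irf2bp2 after LPS was at 19.8, 7.14, 6.01 and 74.7 CPM in the p16-negative and at 11.2, 20.4, 16.8 and 55.3 in the p16-positive libraries. Neither was above 127 CPM in any library, the groups overlapped, and both signs turned under voom (log2 fold change 0.13 ± 0.44 (SE), adjusted p = 0.978 for Irf2bp1, and log2 fold change 0.23 ± 0.55 (SE), adjusted p = 0.973 for Irf2bp2).

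**Figure D4:**
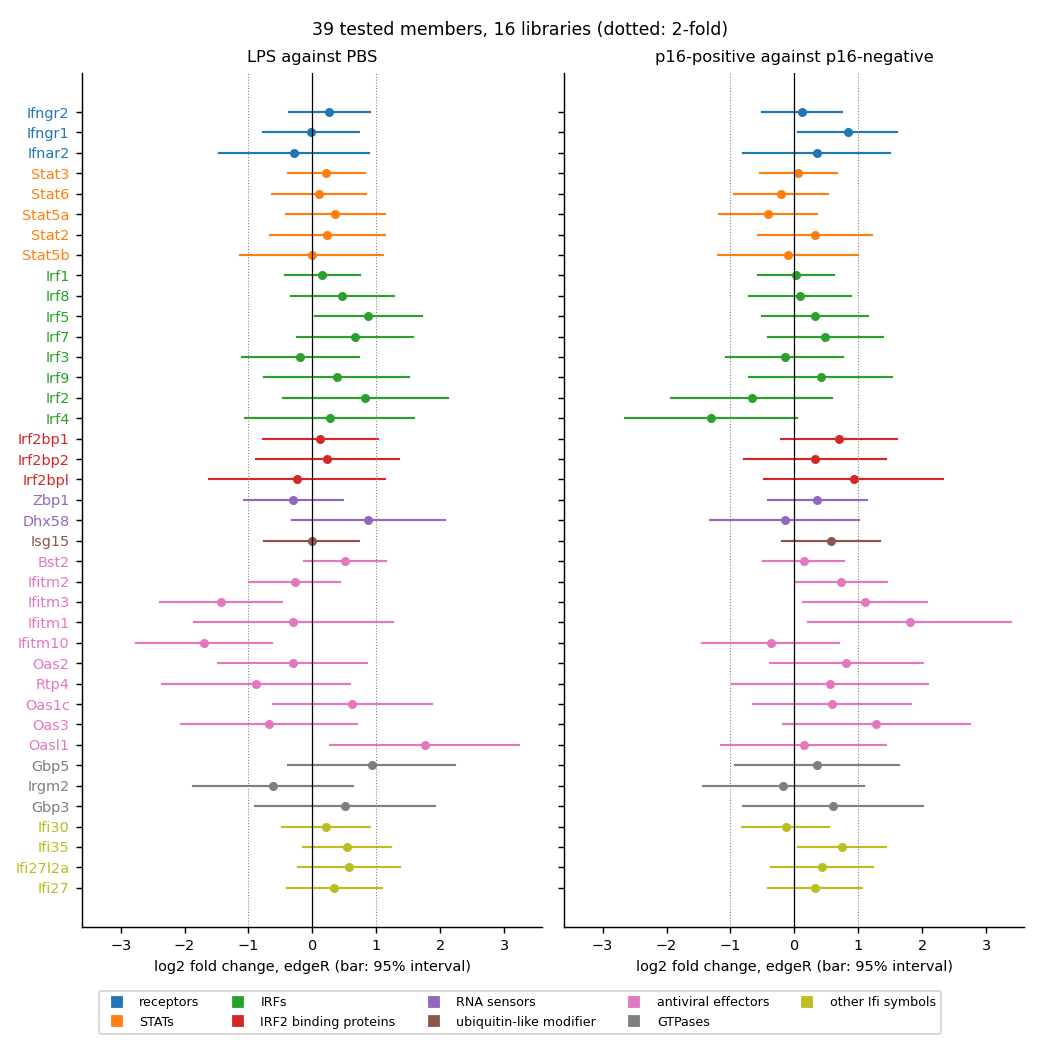
Log2 fold changes (points) with 95% intervals (lines) of 39 tested members for LPS against PBS (left) and p16-positive against p16-negative (right), from edgeR over 16 libraries, coloured by role, with dotted lines at a 2-fold change. Intervals are wide: 8 members on the left and 7 on the right lie inside the dotted lines, and none was called.

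The comparison of the p16 fractions asked whether the interferon genes differed between macrophages with high and low p16. None of the 40 tested members was called with edgeR, where 1.41% of all tested genes were, every one of them higher in the p16-positive fraction. At an unadjusted p under 0.05 there were 5 members, Ifi35, Ifitm1, Ifitm2, Ifitm3 and Ifngr1, all with a positive fold change, which is 12.5% of the members against 10.2% of all genes (581 higher and 85 lower). Ifitm1 passed the minimum for testing through the p16-positive libraries, where it was high, so its values are a description. The 12.5% includes it. DESeq2 called 0 with 4 members under that unadjusted p, gave 2 members no adjusted p, and limma voom called 0 with 6. The members had a median log2 fold change of 0.32, with 30 positive and 10 negative, against 0.08 over all genes, and RLE, DESeq2 and voom gave the members 0.36, 0.36 and 0.21. Antiviral effectors were on the positive side in 9 of 10 (8 of 10 under voom), with a median of 0.66, and the STATs in 3 of 6, with a median of -0.02 that turned to 0.01 under voom. Over all genes 3710 of 6516 were positive. Several effectors, Ifitm1, Oas3, Rtp4 and Oasl1 among them, had fewer than 30 UMIs in the p16-negative libraries. They passed the minimum through the p16-positive ones, so the tally and median of the effectors are a description.

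The per-library values of Ifngr1 and Ifi35 given above overlapped between the fractions, with the higher group mean in the p16-positive fraction under both treatments. Within the 4 same-numbered PBS pairs Ifi35 and Ifitm3 were higher in the p16-positive library in all 4, as were 6 of the 40 members (15.0%) and 9.68% of all genes, and Ifngr1 in 3 with the other pair at 0. In the shallow replicate 1 pair Ifitm3 had the same UMI count in both libraries, so its direction there comes from the library totals. Ifi35 in that pair was at 0 against 216 CPM, the level of 3 UMIs. Ifngr1 was at log2 fold change 0.83 ± 0.38 (SE), 95% interval 0.06 to 1.61, adjusted p = 0.394 and Ifi35 at log2 fold change 0.74 ± 0.34 (SE), 95% interval 0.06 to 1.43, adjusted p = 0.395. Ifitm2 was at 444, 164, 25.6 and 196 CPM in the PBS p16-negative and at 361, 435, 176 and 376 in the PBS p16-positive libraries. Ifitm2 after LPS was at 89.1, 107, 150.2 and 159 CPM in the p16-negative and at 95.1, 218, 303 and 189.6 in the p16-positive libraries. Ifitm2 (chr7:140954837-140955987, minus strand), a late-endosomal restriction factor, was at log2 fold change 0.74 ± 0.35 (SE), 95% interval 0.02 to 1.45, adjusted p = 0.457. With the replicate number within a treatment as a block, Ifitm2 alone of the members was called higher (log2 fold change 0.79, adjusted p = 0.0406), where 4.77% of genes were called higher, so 1 call among 40 members is no more than the background share. That block also ties the LPS fractions by number, which were not taken as pairs, so its adjusted p rests in part on an unsupported matching. Ifitm1 was at 127, 32.9, 8.52 and 4.46 CPM in the PBS p16-negative and at 289, 70.8, 0 and 27.7 in the PBS p16-positive libraries. Ifitm1 after LPS was at 19.8, 7.14, 0 and 7.47 CPM in the p16-negative and at 22.4, 116, 0 and 9.35 in the p16-positive libraries. Ifitm1 (chr7:140967221-140969825, plus strand), which acts at the cell surface, was at log2 fold change 1.80 ± 0.78 (SE), 95% interval 0.22 to 3.39, adjusted p = 0.355, and its counts were 6, 23, 6 and 49 UMIs over the 4 groups. Ifitm3 was at log2 fold change 1.10 ± 0.48 (SE), 95% interval 0.13 to 2.08, adjusted p = 0.355, and at 0.73 without LPS p16-positive replicate 2.

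Ifitm1 depended on 1 library: leaving out LPS p16-positive replicate 2, which held 34 of its 49 UMIs in that group, left it at 0.84 on the log2 scale, and voom gave 0.33. On the negative side stood Irf4, a factor of macrophage and lymphocyte differentiation, at log2 fold change -1.30 ± 0.66 (SE), 95% interval -2.65 to 0.04, adjusted p = 0.516. Irf4 was at 190.4, 32.9, 8.52 and 13.4 CPM in the PBS p16-negative and at 0, 0, 0 and 11.5 in the PBS p16-positive libraries. Irf4 after LPS was at 29.7, 28.6, 6.01 and 12.4 CPM in the p16-negative and at 11.2, 10.2, 0 and 17.00 in the p16-positive libraries. Irf4 was detected in every p16-negative library and in 4 of the 8 p16-positive libraries, at 52 UMIs in all. Isg15 (log2 fold change 0.57 ± 0.37 (SE), 95% interval -0.19 to 1.34, adjusted p = 0.726) and Bst2 (log2 fold change 0.14 ± 0.31 (SE), adjusted p = 0.967) were not called.

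**Figure D5:**
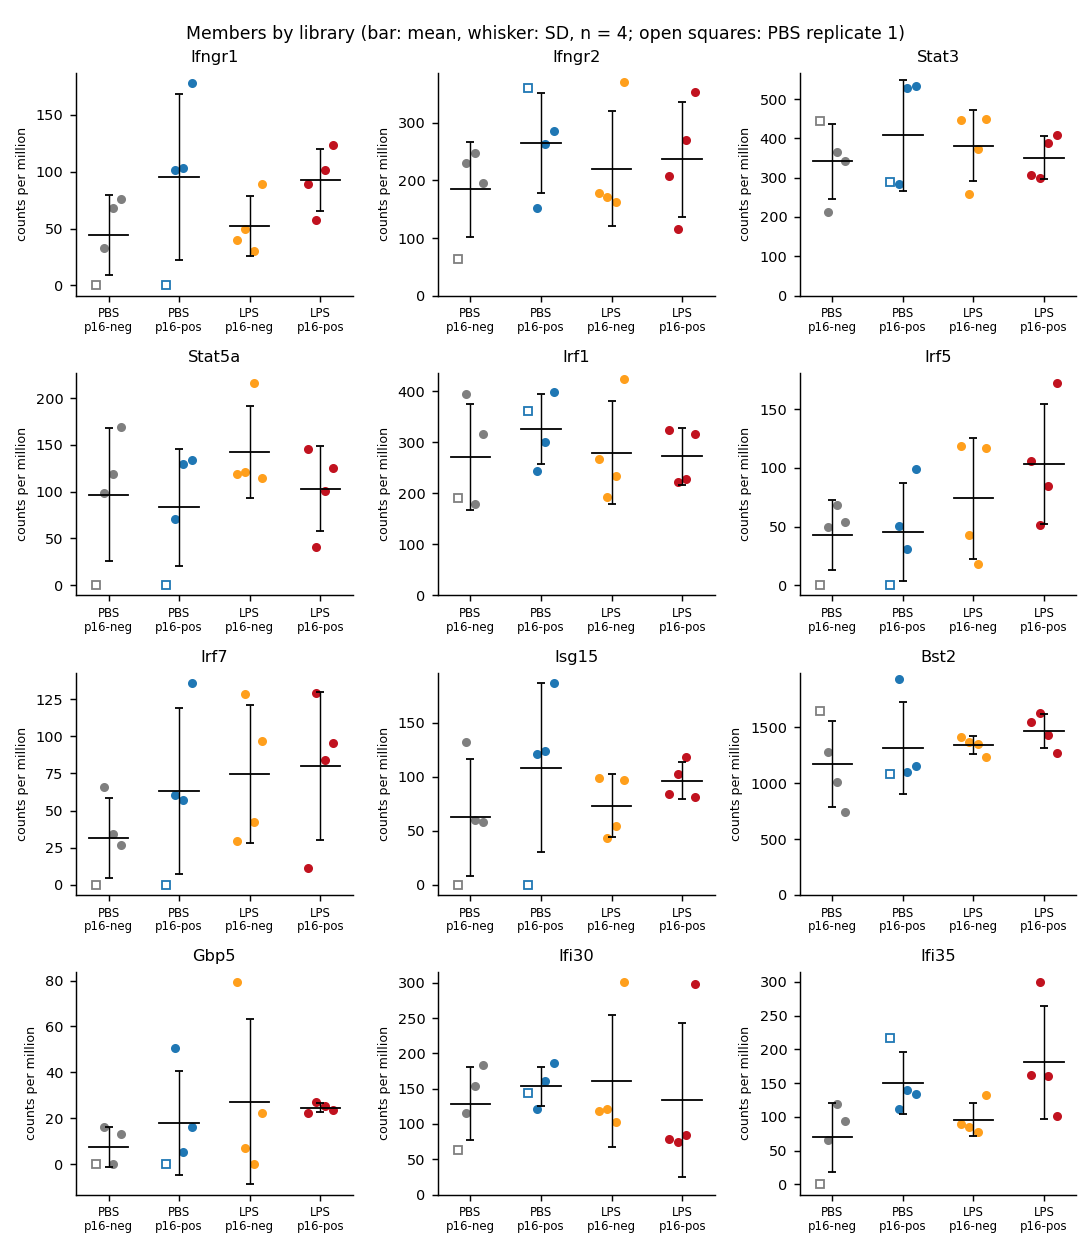
CPM of 12 members in each library, by group, with the mean as a bar and the SD over 4 libraries as a whisker, and PBS replicate 1 as open squares. Ifngr1 and Ifi35 have higher means in the p16-positive than in the p16-negative fraction under both treatments, Ifi30 and Ifngr2 have a single high LPS p16-negative library, and in each panel the groups overlap.

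Split by fraction, LPS against PBS gave no called member in the p16-negative fraction, where 0.0153% of genes were called, nor in the p16-positive fraction, where 0.046% were. In the p16-negative fraction 3 members had an unadjusted p under 0.05 with edgeR (7.5%, against 4.39% of all genes), 2 with DESeq2 and 2 with limma voom, and neither of the latter tools called one. Oasl1 had 0 of 418222 UMIs in the PBS p16-negative libraries, which allows up to 7.17 CPM, and 10 UMIs (12.4 CPM) after LPS. That is at least 1.72-fold higher against 3 UMIs over the group (adjusted p = 0.913), a description only, since Oasl1 passed the minimum through its high side. The 7.5% includes Oasl1. Ifi27l2a, an interferon-induced gene of the Ifi27 family, was at log2 fold change 1.29 ± 0.60 (SE), adjusted p = 1.00. Ifitm10 was at log2 fold change -1.90 ± 0.79 (SE), adjusted p = 1.00 in the p16-negative and at log2 fold change -1.51 ± 0.74 (SE), adjusted p = 0.810 in the p16-positive fraction.

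In the p16-positive fraction the 3 members (7.5%, against 6.15% of all genes) with an unadjusted p under 0.05 with edgeR were Ifitm10, Ifitm3 (log2 fold change -1.38 ± 0.62 (SE), adjusted p = 0.694) and Rtp4, all lower after LPS. The 7.5% includes Rtp4, which passed the minimum of 30 UMIs through its high side. DESeq2 gave 2 and limma voom 3, with 0 called by both, and DESeq2 gave 10 of the 40 members no adjusted p, so it could not call those. Without LPS p16-positive replicate 2 edgeR called Ifitm3 there (log2 fold change -2.32, adjusted p = 0.0437), where 1.2% of genes were called lower. Rtp4 encodes a chaperone of membrane receptors that is induced by interferon. Rtp4 was at 0, 0, 8.52 and 8.92 CPM in the PBS p16-negative and at 72.1, 80.9, 10.3 and 20.8 in the PBS p16-positive libraries. Rtp4 after LPS was at 39.6, 7.14, 0 and 9.95 CPM in the p16-negative and at 11.2, 10.2, 8.42 and 1.70 in the p16-positive libraries. Of its 40 UMIs 20 came from the PBS p16-positive libraries, and without that group it would not have passed the minimum of 30, so its values are a description. It was at log2 fold change -2.11 ± 0.92 (SE), adjusted p = 0.670 for LPS against PBS, and at -1.26 without PBS p16-positive replicate 2.

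Split by treatment, the p16 fractions gave no called member in PBS, where 0% of genes were called, nor in LPS, where again 0% were. In PBS 2 members had an unadjusted p under 0.05 with edgeR (5.0%, against 5.54% of all genes), 1 with DESeq2 and 5 with limma voom, none called by either. Rtp4 was at log2 fold change 2.21 ± 1.08 (SE), adjusted p = 0.887, as a description, and the 5.0% includes it. Its 0 in PBS p16-negative replicate 1 allows up to 190.4 CPM, above every PBS p16-positive value, and without PBS p16-positive replicate 2 it was at 1.35. Irf4 was at log2 fold change -2.35 ± 1.07 (SE), adjusted p = 0.864, with 5 UMIs in the PBS p16-positive libraries, all in replicate 4. Without PBS p16-negative replicate 1 it was at -1.52, and without PBS p16-positive replicate 4 that group was at 0 UMIs and the fitted value of -5.68 is no bound. Replicate numbers were taken to pair the PBS fractions. With that replicate block 2.38% of genes were called in PBS but still none of the 40 members (lowest adjusted p of a member = 0.115). Of these members 7 then had an unadjusted p under 0.05, all with a positive fold change, where 10.9% of all genes had such a p. In LPS the 1 member with an unadjusted p under 0.05 with edgeR was Ifitm1 (log2 fold change 2.31 ± 1.06 (SE), adjusted p = 0.599), where 6.83% of all genes had one. This is a description too, since Ifitm1 passed the minimum through the p16-positive libraries. Without LPS p16-positive replicate 2 it was at 0.45. In the same comparison DESeq2 and limma voom gave 0 members at that p and called 0.

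The interaction asked whether the response to LPS differed between the fractions, and no member was called, where 0% of genes were. Rtp4 had the only unadjusted p under 0.05 with edgeR (log2 fold change -3.05 ± 1.46 (SE), adjusted p = 1.00), and DESeq2 and limma voom gave 0 and called 0. Over the members the interaction had a median of -0.16, against 0.08 over all genes, with none of the 40 intervals inside a 2-fold change, so the data do not resolve differences of that size between the fractions.

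Other genes of the pathway, from a list of 102 names made up of Janus kinases, feedback inhibitors, adaptors, further sensors and interferon-induced genes outside the rule, were read in the same fits. Of these 66 were listed and 57 tested, and edgeR called 0 in each of the 7 comparisons. For LPS against PBS 44 fold changes were positive and 13 negative, with a median of 0.32, against 3977 of 6516 positive and a median of 0.14 over all genes. RLE, DESeq2 and voom left 39, 39 and 40 positive, with medians of 0.21, 0.21 and 0.27. An unadjusted p under 0.05 was reached by 10 positive and 1 negative, 19.3% of the 57, against 9.27% of all genes. In the other 6 comparisons 0 to 5 did. Over the same 57 genes limma voom called 0 in each comparison, with 1 to 9 under that unadjusted p. DESeq2 called Psmb8 alone, as higher after LPS (adjusted p = 0.0364), where 0.767% of all genes were called higher. It gave up to 24 of the 57 no adjusted p, the most for LPS within the p16-negative fraction. The lowest p belonged to Psmb8, an immunoproteasome subunit, at 436 ± 192 (SD, n = 4), 483 ± 215, 775 ± 87.5 and 759.8 ± 214 CPM in the 4 groups (log2 fold change 0.89 ± 0.33 (SE), adjusted p = 0.260). Next came Slfn8, a Schlafen gene with 0, 3, 8 and 21 UMIs per group (2.06 ± 0.79, adjusted p = 0.293). Slfn8 passed the minimum for testing through the LPS libraries, where it was high, so its values are a description. The 10 positive genes and the 19.3% include it. After Slfn8 came Tapbp, which encodes tapasin of the class I loading complex (0.74 ± 0.30, adjusted p = 0.361). Groups overlapped in most of these, and the list was composed with earlier results of these data known.

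The sequence elements can be set beside the fold changes as a description. Members with an ISRE core had a median log2 fold change of 0.23 for LPS against PBS over 11 tested genes, and those without one 0.21 over 22. For the p16 fractions the medians were 0.57 and 0.13 in the same order, with 9 of 11 and 15 of 22 positive. No test was made of these medians, and members that share a cluster or a sequence, such as the Ifitm genes, are not independent.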

How the data were processed

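Intracellularly stained alveolar macrophages were profiled by bulk MARS-seq, a 3′ method with UMIs. Per the methods of the study, the authors ran the UTAP pipeline, counted reads that map uniquely to the 3′ ends of RefSeq genes on mm10 and deposited UMI counts. For its version and any use of strand, nothing is given in the sources used here. The deposited table also holds normalized values, regularized log values and fold changes with p-values of the authors' own comparisons, none of which was used. The counts were tested with edgeR 4.0.16 in R 4.3.3 (TMM, quasi-likelihood F test, genes with at least 30 UMIs over 16 libraries, 6516 genes, Benjamini-Hochberg over all of them, threshold 0.05), with the p16 fraction or the treatment as covariate, and with 4 group means for the strata and the interaction. The SE is the log2 fold change divided by the root of F. CPM are counts over the UMI total of a library, without the TMM factors of the fits. Group means of CPM and fitted fold changes can therefore differ in sign, as for Dhx58 and Irf2bp1 in LPS against PBS. DESeq2 1.42.0 and limma 3.58.1 (voom with sample quality weights) were alternatives, beside RLE factors, other count filters, left-out libraries and replicate blocks. The edgeR code was also run on simulated counts with the same spread for every gene and no differences in cell make-up between libraries. That run cannot show how the tests perform on these libraries. Floors of 3 UMIs cover counting error only, and the intervals of fold changes the spread between libraries.

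Members, gene lists and tests were chosen with earlier results of these data known. Values per library are given for the most abundant member of each role, for that of lowest p after LPS in each role, and for Irf7, Isg15 and Ifngr1; 1 further member is counted but not reported here; Ifitm1, Ifitm2, Ifitm3, Oasl1, Rtp4, Irf4 and Ifi27l2a, and the other genes named, were chosen after their values were seen. Same-numbered libraries of the PBS fractions deviated together (r 0.146 to 0.345 across genes in all 4 pairs, each over 0.1), so the numbers were taken to pair these. Of the 4 LPS pairs 3 passed, and across treatments never all 4. PBS p16-positive with LPS p16-negative libraries came near, at r 0.0987 to 0.241. The labels give no pairing, so this check cannot show that same-numbered libraries share an animal or pool.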

Additional observations from a re-analysis of the deposited data

Results flagged for a closer look

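The members whose fold changes were followed through the alternatives, and the share of all members, were checked in each group of 4 libraries, 103 sets of values in all, for a highest or lowest library whose gap to the nearest other passes Dixon's 95% critical value. Chance flags about 1 in 20 such sets, and 12 stood out here. No explanation was tested.

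In PBS p16-negative cells these were Irf4, whose highest library was replicate 1 at 190.4 CPM, Zbp1, highest in replicate 1 at 254 CPM, Ifi27l2a, lowest in replicate 2 at 32.9 CPM, and Ifitm10, lowest in replicate 1 at 0 CPM. That replicate 1 library held 15755 UMIs, so each of its high values rests on 3 or 4 UMIs. In PBS p16-positive cells Bst2 was highest in replicate 2 at 1931 CPM, Dhx58 highest in replicate 1 at 72.1 CPM, which is 1 UMI, Irf4 highest in replicate 4 at 11.5 CPM, and Zbp1 lowest in replicate 3 at 62.0 CPM.

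In LPS p16-negative cells Ifi30 and Ifngr2 were highest in replicate 4, at 301 and 371 CPM, and Stat5a in replicate 3 at 216 CPM. Ifi30 was highest in replicate 4 of the LPS p16-positive cells too, at 298 CPM. The replicate 4 libraries are the deepest of both LPS fractions, so these values do not rest on few UMIs.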

How the results depend on the processing

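No member was called with edgeR as run, and the few calls under alternatives all concern Ifitm genes. For LPS against PBS, DESeq2 called 2 members, voom 1 and the replicate block 2, and leaving out single libraries gave 0 to 2. LPS p16-positive replicate 2 is the library whose absence gave the 2. For the p16 fractions 1 member was called with the replicate block by treatment and number, and 0 to 0 without single libraries. That block was added within PBS, within LPS and for the interaction after seeing the data. Within the p16-positive fraction LPS gave 0 to 1.

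Counts over all genes moved more. For LPS against PBS they were 60, with DESeq2 135, with voom 127, with the replicate block 242 and without single libraries 29 to 195. For the p16 fractions they were 92, with voom 9, without a count filter 157, with filterByExpr 21, without both PBS replicate 1 libraries 43, with the replicate block 260, with that by treatment and number 357 and without single libraries 0 to 284. LPS within p16-negative cells gave 1, with DESeq2 5, unfiltered 2, with the replicate block 26, from those 8 libraries alone 7 and without single libraries 0 to 5. LPS within p16-positive cells gave 3, with RLE 5, DESeq2 22, voom 13, unfiltered 14, filterByExpr 5, both PBS replicate 1 libraries out 7, the replicate block 123, 8 libraries alone 0 and without single libraries 0 to 90. The fractions within PBS gave 0, with the replicate block 40, with that by treatment and number 155, from 8 libraries alone 7 and without single libraries 0 to 0. Within LPS they gave 0, unfiltered 50, with the replicate block 86, with that by treatment and number 147 and without single libraries 0 to 165. The interaction gave 0, with the block by treatment and number 1 and without single libraries 0 to 0. The cause was not tested, apart from the fewer libraries.

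Signs near 0 turned for LPS against PBS. Irf2bp1 was at -0.12 and Irf2bp2 at -0.16 under voom, Irf1 at -0.00064 under RLE, -0.00066 under DESeq2 and -0.035 under filterByExpr, and Ifi30 at -0.13 under voom. Isg15 was at 0.034 unfiltered and 0.0021 with the replicate block, Ifngr1 at 0.040 unfiltered and 0.054 with the replicate block, and Ifitm1 at 0.26 without both PBS replicate 1 libraries. Leaving out single libraries gave Irf2bp1 -0.21 to 0.25, Irf2bp2 -0.31 to 0.65, Ifi30 -0.13 to 0.32, Isg15 -0.12 to 0.15, Ifngr1 -0.17 to 0.16 and Ifitm1 -1.49 to 0.039. The replicate block changed no other call on a member. Only the PBS fractions were taken to be paired by number. In the 2 shallow PBS libraries most members are at or under the detection limit.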
